A study of Drosophila melanogaster with 6 samples.

Results

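The dosage compensation and sex determination genes of *Drosophila melanogaster* were followed in larval salivary glands (SGs) with and without the de2f1b isoform of E2F1. They were taken by gene name, and all 10 names were found among the 23932 rows of the table: *msl-1*, *msl-2*, *msl-3*, *mle*, *mof*, *lncRNA:roX1*, *lncRNA:roX2*, *Sxl*, *tra* and *dsx*. RNA-seq was performed on SGs of wandering larvae of the third instar in 4 *de2f1b* mutant libraries, replicates 1, 2, 3 and 4, and in 2 *w1118* control libraries, replicates 1 and 4. The mutants carry an allele that removes the alternatively spliced form of *E2f1* with a microexon, and the canonical form remains. No transgene or agent is named for either genotype. The mutant group is 1 allele. The study used it both homozygous and over a deficiency in other experiments, and which of these was sequenced is not given in the sources used here. The sex of the larvae and the number of glands pooled per library are likewise not given.

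Male flies have a single X chromosome, and the MSL complex raises its transcription towards the output of the female pair. The complex joins the proteins MSL1, MSL2 and MSL3, the RNA helicase MLE and the histone H4 lysine 16 acetyltransferase MOF with the noncoding RNAs roX1 and roX2, which are made from the X chromosome and are abundant in males. In females the RNA-binding protein Sxl blocks production of MSL2 and directs splicing of *tra*, whose product directs female splicing of *dsx*. SG cells carry polytene chromosomes, on which the MSL complex has long been seen as a coat over the male X.

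Values are normalized counts, that is, reads counted on a gene divided by 1 size factor per library. The libraries held 56495956 to 86202639 reads on genes in *de2f1b* SGs and 78317269 to 94907006 in *w1118* SGs. A single read was worth 0.782 to 1.37 normalized counts, and every one of the 10 genes had at least 220 reads in each library. All 12 SG marker genes were detected in every library. The markers of other tissues differed between libraries. Of 8 ring gland markers, *sro* was high in every library, and the other 7 summed to 12198 and 16457 normalized counts in *de2f1b* replicates 3 and 4, 58.7 and 68.5 in *de2f1b* replicates 1 and 2, and 56.7 and 35.7 in the *w1118* libraries. The sum of 8 testis markers was 1945 in *de2f1b* replicate 3, 253 to 325 in the other *de2f1b* libraries and 127 to 162 in the *w1118* libraries. The sum of 8 midgut markers was 384246 and 41365 in *de2f1b* replicates 1 and 3, 32.9 and 246 in *de2f1b* replicates 2 and 4, and 17.4 to 82.6 in the *w1118* libraries. In such bulk samples, fewer cells of a type and less RNA per cell cannot be told apart. *E2f1* itself averaged 9914 ± 2367 in *de2f1b* SGs and 15605 ± 4329 in *w1118* SGs (SD, n = 4 and 2), a log2 fold change of -0.66 (limma adjusted p = 0.23). It was -0.94 without *w1118* replicate 1 and -0.37 without *w1118* replicate 4. Counts per gene do not separate the form with the microexon, so they do not check the mutant genotype.

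None of the 10 genes passed the test between genotypes. In limma on log2(normalized count + 1), with p-values adjusted by Benjamini and Hochberg's method across 11099 tested genes, 0 of the 10 rose and 0 fell at an adjusted p under 0.05, and 0 did so at an unadjusted p under 0.05. Of all tested genes 4.24% passed the adjusted threshold, 352 (3.17%) higher and 119 (1.07%) lower in *de2f1b* SGs, and 21.6% passed the unadjusted one. edgeR and DESeq2, run on reads recovered from the same values, also called 0 of the 10, against 2.59% and 14.7% of all genes, and each gave 0 at an unadjusted p under 0.05. For 0 of the 10 genes did the *de2f1b* and *w1118* libraries fail to overlap, whereas 33.4% of all tested genes had groups that did not overlap. The log2 fold changes (*de2f1b* over *w1118*) were below 0 for 8 of the 10, against 48.5% of all tested genes, and their median was -0.25 against 0.02. The tested genes include many of low count. Over the 8166 genes with a mean of at least 100, which include all 10, the median was -0.08. The lowest adjusted p among the 10 was 0.325, for *dsx*. These p-values measure the spread among 6 libraries that the labels call biological replicates. With 2 control libraries the 95% confidence intervals reached a median of 0.50 on either side of the estimate on the log2 scale. Changes of that size or smaller could not be told from no change. The intervals are for single genes, whereas calls used p-values adjusted across all tested genes. Larger changes could therefore also go uncalled, above all for roX1, *dsx* and roX2, whose intervals were the widest.

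**Figure D1:**
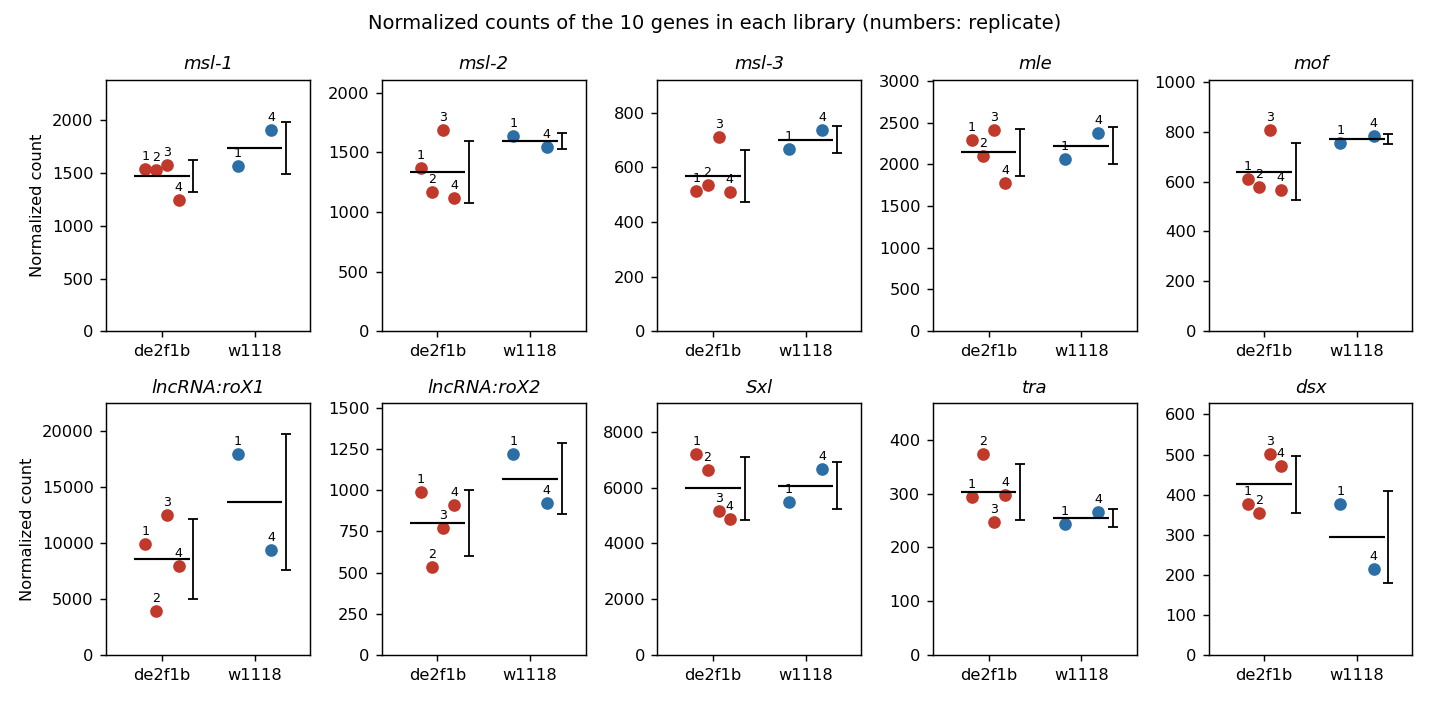
Normalized counts (y axis, from 0) of the 10 genes, 1 panel each, in *de2f1b* SGs (left) and *w1118* SGs (right). Points are libraries with their replicate numbers, the horizontal line is the mean and the bar the SD (n = 4 and 2). The genotypes overlap in every panel, and roX1 spreads most within each genotype.

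The 5 protein genes of the MSL complex were all expressed in the SGs of both genotypes, and all 5 had a log2 fold change slightly below 0. *msl-2* (FBgn0005616, 2L:3462218-3466112) encodes the male-limiting subunit of the complex, whose RNA is the one that Sxl binds. It had 1367, 1168, 1687 and 1118.25 normalized counts in *de2f1b* replicates 1 to 4, against 1639 and 1545 in *w1118* replicates 1 and 4. Mutant replicates 1, 2 and 4 lay below both controls and replicate 3 lay above both, so the groups overlapped. The log2 fold change was -0.27 (95% CI -0.76 to 0.22, limma adjusted p = 0.469).

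*msl-1* (FBgn0005617, 2L:18683720-18688800) encodes the scaffold on which the complex assembles. Its normalized counts were 1542, 1533, 1579.95 and 1248 in *de2f1b* SGs, against 1563 and 1909 in *w1118* SGs. Replicate 4 was the low library of the mutant group, and the other 3 lay close together next to the lower control. The log2 fold change was -0.23 (95% CI -0.64 to 0.18, limma adjusted p = 0.459). It was -0.16 without *de2f1b* replicate 4, -0.38 without *w1118* replicate 1 and -0.0896 without *w1118* replicate 4. *msl-3* (FBgn0002775, 3L:7123213-7125533) encodes the chromodomain subunit that binds the methylated histone mark of transcribed genes. It had 515, 537, 709.9 and 511 normalized counts in *de2f1b* SGs, against 667 and 737 in *w1118* SGs. Here replicate 3 was the high library and lay between the controls, and the other 3 mutant libraries lay below both. Its log2 fold change was -0.32 (95% CI -0.81 to 0.18, limma adjusted p = 0.419), the lowest of the 5.

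*mof* (FBgn0014340, X:5873840-5876853), which encodes the acetyltransferase, is the only one of the 5 that lies on the X chromosome. Its normalized counts were 609.6, 579, 807 and 565 in *de2f1b* SGs, against 756 and 784 in *w1118* SGs. As for *msl-2*, 3 mutant libraries lay below both controls and replicate 3 above both. The log2 fold change was -0.28 (95% CI -0.78 to 0.21, limma adjusted p = 0.46). *mle* (FBgn0002774, 2R:5974857-5980778), which encodes the helicase that remodels the roX RNAs, had 2286, 2099, 2410.2 and 1774 normalized counts in *de2f1b* SGs, against 2065 and 2377 in *w1118* SGs. The mutant libraries ran from below to above the controls. Its log2 fold change was -0.06 (95% CI -0.47 to 0.35, limma adjusted p = 0.862), and the sign turned to 0.09 when the libraries were scaled to the same total.

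*msl-2*, *msl-3* and *mof* moved closely together from library to library, and *msl-1* and *mle* followed them less closely. The likeness of a pair was measured as the SD, over the 6 libraries, of the difference between their log2 values, among 8124 genes with a mean of at least 100. *msl-3* and *mof* differed by an SD of 0.06, and only 2 genes were closer to *msl-3*. *msl-2* and *mof* differed by an SD of 0.08, and again 2 genes were closer to *msl-2*. For *msl-2* and *msl-3* the SD was 0.13, with 45 genes closer to *msl-2*. *msl-1* and *mle* differed by an SD of 0.11, and 209 genes were closer to *msl-1*. Between either of these 2 genes and the other 3 the SD was 0.17 to 0.20, and 226 to 1372 genes were closer, with *msl-1* and *msl-2* the least close pair. The summed level of the 5 genes was 6319.7, 5916, 7193 and 5216 normalized counts in *de2f1b* SGs, against 6692 and 7352 in *w1118* SGs, with replicate 3 of the mutant between the controls and the other 3 below both.

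**Figure D2:**
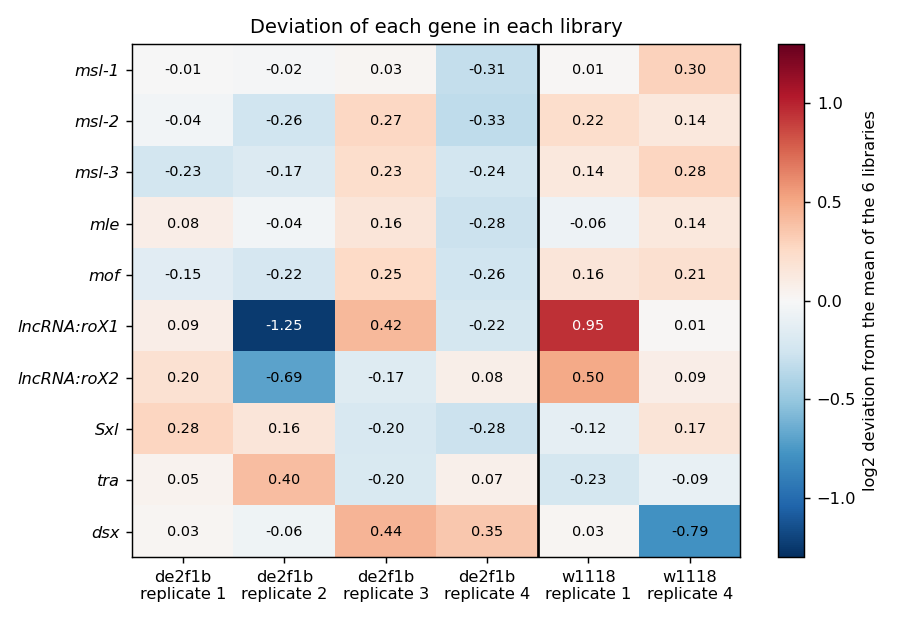
Deviation of each gene from its own mean over the 6 libraries, in log2 units, with *de2f1b* replicates 1 to 4 at the left and *w1118* replicates 1 and 4 at the right. Red is above and blue below the mean. *msl-2*, *msl-3* and *mof* share a pattern with *de2f1b* replicate 3 high, and roX1 is lowest in *de2f1b* replicate 2.

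roX1 was the most variable of the 10 genes within the mutant group and between the controls. *lncRNA:roX1* (FBgn0019661, X:3857230-3862697) had 9881, 3911, 12449.7 and 7949.7 normalized counts in *de2f1b* SGs, against 17949 and 9354 in *w1118* SGs. The highest control library stood above every mutant library, the lower control lay among them, and *de2f1b* replicate 2 was the lowest of the 6. The means were 8548 ± 3599 in *de2f1b* SGs and 13652 ± 6077 in *w1118* SGs (SD, n = 4 and 2), with a log2 fold change of -0.72 (95% CI -1.90 to 0.46, limma adjusted p = 0.435). The value turned on which control was used: it was -0.25 without *w1118* replicate 1 and -1.19 without *w1118* replicate 4. Without *de2f1b* replicate 2 it was -0.38. Its SD of log2 values within the mutant group, 0.72, was above that of 73.5% of tested genes, and the controls differed by 0.94 on the log2 scale.

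*lncRNA:roX2* (FBgn0019660, X:11579065-11580432), the shorter of the pair, had 991, 536, 771 and 913 normalized counts in *de2f1b* SGs, against 1222 and 921 in *w1118* SGs. As for roX1, *w1118* replicate 1 was the highest library and *de2f1b* replicate 2 the lowest. The means were 802 ± 199.9 in *de2f1b* SGs and 1072 ± 213 in *w1118* SGs (SD, n = 4 and 2), with a log2 fold change of -0.44 (95% CI -1.13 to 0.25, limma adjusted p = 0.417). That value was -0.26 without *de2f1b* replicate 2, -0.24 without *w1118* replicate 1 and -0.64 without *w1118* replicate 4.

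Among annotated noncoding RNA genes roX1 ranked between 3 and 7 by normalized count in the *de2f1b* libraries and at 3 and 4 in the *w1118* libraries. Of the pair, roX1 was the more abundant in every library, also per kb of annotated exon. By that measure the ratio of roX1 to roX2 was 2.49, 1.83, 4.04 and 2.18 in *de2f1b* SGs and 3.67 and 2.54 in *w1118* SGs. The size of this ratio depends on the annotated lengths, which join the exons of all transcripts. The exons of roX1 overlap those of *ec* on the opposite strand over 7.17% of its exon length. Whether the counting used strand is not stated, so reads in that stretch cannot be assigned to either gene with certainty. The genes most like roX1 over the 6 libraries were *Mybbp1A*, *CG1136* and the gene FBgn0284251 (SD of the difference 0.33, 0.33 and 0.34), and those most like roX2 were *Mdr49*, *CG10444* and *Ttd14* (0.16, 0.18 and 0.21).

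**Figure D3:**
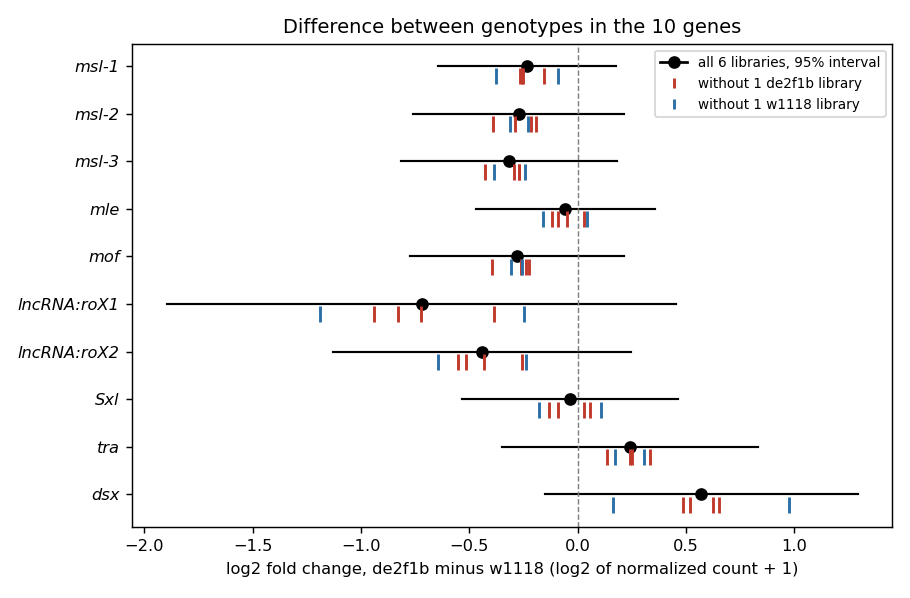
Log2 fold change of each of the 10 genes, *de2f1b* over *w1118* (x axis), with 95% confidence intervals from limma (4 and 2 libraries). Every interval includes 0, and those of roX1, *dsx* and roX2 are the widest.

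Of the sex determination genes, *Sxl* was near the same mean level in both genotypes, and *tra* and *dsx* had higher means in *de2f1b* SGs without passing the test. Counts per gene cannot separate the sex-specific splice forms of *Sxl*, *tra* and *dsx*, so a switch between male and female forms cannot be read from these values. *Sxl* (FBgn0264270, X:7074550-7098053), the switch gene, had 7213, 6627, 5149.5 and 4880.4 normalized counts in *de2f1b* SGs, against 5465 and 6658 in *w1118* SGs. Replicate 1 of the mutant lay above both controls and replicates 3 and 4 below both. The log2 fold change was -0.03 (95% CI -0.53 to 0.46, limma adjusted p = 0.937), and it was 0.12 with libraries scaled to the same total and 0.20 without *de2f1b* replicates 3 and 4, the libraries high in ring gland markers. The genes most like it were *par-1*, *CG8405* and *MED31* (SD of the difference 0.04, 0.04 and 0.05).

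*tra* (FBgn0003741, 3L:16590059-16591050) encodes the splicing regulator that Sxl switches on in females. It had 293, 374, 248 and 298 normalized counts in *de2f1b* SGs, against 243 and 266 in *w1118* SGs. Mutant replicates 1, 2 and 4 lay above both controls, and replicate 3 lay between them. Its log2 fold change was 0.24 (95% CI -0.35 to 0.83, limma adjusted p = 0.594), and it was 0.13 without *de2f1b* replicate 2. Exons of *tra* overlap those of *l(3)73Ah* on the opposite strand over 74 bases, 8.58% of its exon length.

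*dsx* (FBgn0000504, 3R:7924323-7967408) encodes the transcription factor at the end of the cascade, made in a male and a female form. It had 376, 355, 502 and 471 normalized counts in *de2f1b* SGs, against 376 and 214 in *w1118* SGs. Replicate 4 of the control was the low library, and the other control lay among the mutant libraries. The means were 426 ± 71.5 in *de2f1b* SGs and 295 ± 115 in *w1118* SGs (SD, n = 4 and 2), with a log2 fold change of 0.57 (95% CI -0.15 to 1.29, limma adjusted p = 0.325), the highest of the 10. It was 0.16 without *w1118* replicate 4 and 0.98 without *w1118* replicate 1. The 2 mutant libraries with the most *dsx*, replicates 3 and 4, were those with the most ring gland, nervous system and muscle marker RNA. The sum of 8 muscle markers was 52313, 42422, 87530 and 147773 in *de2f1b* SGs and 46275 and 24953 in *w1118* SGs. Of 8 nervous system markers, *Syt1* was high in every library, and the other 7 summed to 363, 351, 4562 and 3686 in *de2f1b* SGs and 590.4 and 148 in *w1118* SGs, with only 1 of the 8 at 0, in *w1118* replicate 4. Without *de2f1b* replicates 3 and 4 the log2 fold change of *dsx* was 0.36. The part of these tissues in the *dsx* level was not tested.

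Per kb of annotated exon, roX1 stood highest and *dsx* lowest in both genotypes. These lengths join the exons of all annotated transcripts of a gene and can exceed the length of the RNA made. The order between genes therefore depends on the annotation as well as on the level. In *de2f1b* SGs the order was roX1 (1563 ± 658 normalized counts per kb), *Sxl* (649 ± 123), roX2 (587 ± 146), *mle* (462 ± 59.7), *tra* (352 ± 60.6), *msl-2* (347 ± 67.1), *msl-1* (294 ± 30.5), *msl-3* (288 ± 48.3), *mof* (212 ± 37.4) and *dsx* (46.5 ± 7.80; SD, n = 4). Neighbours in that order overlapped in their libraries except *mof* and *dsx*. In *w1118* SGs it was roX1 (2497 ± 1111), roX2 (783 ± 156), *Sxl* (659 ± 91.7), *mle* (479 ± 47.5), *msl-2* (414 ± 17.4), *msl-3* (356 ± 25.1), *msl-1* (346 ± 48.7), *tra* (295 ± 19.0), *mof* (255 ± 6.44) and *dsx* (32.2 ± 12.5; SD, n = 2). There, neighbours overlapped for roX2 with *Sxl* and for *msl-3* with *msl-1*. Both roX RNAs and *Sxl* led the order in each genotype, and *tra* stood just above *msl-2* in *de2f1b* SGs, where their libraries overlapped, and below it in *w1118* SGs, where they did not.

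The wider pathway was read from 5 lists of 49 genes, of which 45 were tested. Of the 45, 1 rose and 0 fell at an adjusted p under 0.05 in limma, against 3.17% and 1.07% of all tested genes. An unadjusted p under 0.05 was found for 5, against 21.6% of all tested genes. The log2 fold change was above 0 for 15 and below 0 for 30, against 48.5% of all tested genes below 0. Over the lists the median was -0.15, against 0.02 over all tested genes and -0.08 over genes with a mean of at least 100. Groups did not overlap for 3 genes in the higher and 8 in the lower direction, against 17.4% and 16% of all tested genes.

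Among 12 cofactors of the MSL complex and regulators of X chromatin, 0 passed the test in limma, edgeR or DESeq2, 1 had an unadjusted p under 0.05 in limma and 2 in each of the others, and 6 were above and 6 below 0. The largest value above 0 was that of *how*, an RNA-binding protein gene, with 4660 ± 427 normalized counts in *de2f1b* SGs and 3523 ± 441 in *w1118* SGs (log2 fold change 0.40, limma adjusted p = 0.194). The largest below 0 was that of *Trl*, which encodes the GAGA factor, with 1027 ± 179 in *de2f1b* SGs and 1582 ± 499 in *w1118* SGs (-0.60, limma adjusted p = 0.232). For *Trl* the value was -0.93 without *w1118* replicate 1 and -0.28 without *w1118* replicate 4. All 8 genes listed with the NSL complex, the other complex that contains MOF, were below 0, against 48.5% of all tested genes. The median of the 8 was -0.22, against -0.08 over genes with a mean of at least 100. The list includes the genes of the interband proteins, *Chro* and *pzg*, beside those of the complex. Of these 8, 0 passed the test in limma or edgeR and 1 in DESeq2. An unadjusted p under 0.05 was found for 2, 1 and 3 in these tools, against 21.6% of all tested genes in limma. The groups of 3 did not overlap, all in the lower direction. Over all tested genes 33.4% had groups that did not overlap, and 16% were so in the lower direction. *Chro*, which encodes the interband protein Chromator, was the furthest below 0, with 3868 ± 440 normalized counts in *de2f1b* SGs and 5623 ± 959 in *w1118* SGs (-0.54, limma adjusted p = 0.142). DESeq2 gave it an adjusted p of 0.031, and the range over all alternatives ran up to 0.711. *Rcd5* was the nearest to 0 of the 8 (-0.09, limma adjusted p = 0.751).

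The 9 factors of *Sxl* splicing, among them the m6A methylation genes, included 0 that passed the test in limma, edgeR and DESeq2. In each tool 0 had an unadjusted p under 0.05. Of these 9, 8 were below 0, against 48.5% of all tested genes, and the median was -0.16. *Flacc*, a member of the m6A methyltransferase complex, was the furthest below 0 (-0.45, limma adjusted p = 0.311), and *Ythdc1*, a reader of that mark, was the one above (0.15, limma adjusted p = 0.718). For *Flacc* the value was -0.74 without *w1118* replicate 1 and -0.17 without *w1118* replicate 4. Of the 9 genes that count X chromosomes in the early embryo, 8 were tested, and 0 passed in limma or edgeR and 1 in DESeq2, with 1 at an unadjusted p under 0.05 in each. *run*, a Runt transcription factor gene, had 52.0, 24.7, 88.6 and 64.9 normalized counts in *de2f1b* SGs, against 8.34 and 0 in *w1118* SGs. The groups did not overlap, and the log2 fold change was 4.12 (limma adjusted p = 0.0824, unadjusted 0.00539). It was 5.73 without *w1118* replicate 1 and 2.51 without *w1118* replicate 4. With controls so low the size also depended on the pseudocount, at 4.65 with 0.5 and 2.22 with 10. DESeq2 gave *run* an adjusted p of 0.0213, and the other alternatives gave 0.0589 to 0.45. At the other end of that list was *da* (-0.34, limma adjusted p = 0.385), which encodes the common partner of the basic helix-loop-helix proteins. For *da* the value was -0.22 without *de2f1b* replicate 4, -0.48 without *w1118* replicate 1 and -0.20 without *w1118* replicate 4.

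Among 11 genes that act with or downstream of *tra* and *dsx*, 8 were tested, and *Yp3* was the gene that rose. *Yp3*, on the X chromosome, encodes a yolk protein and is a known target of Dsx in the adult fat body. It had 4424, 2918, 2709 and 4098 normalized counts in *de2f1b* SGs, against 114 and 57.7 in *w1118* SGs. Every mutant library was far above both controls. The log2 fold change was 5.39 (95% CI 4.58 to 6.21, limma adjusted p = 0.00136), and it lay between 4.91 and 5.88 over all alternatives. The other yolk protein genes did not share this level: *Yp2* averaged 13.9 ± 6.77 in *de2f1b* SGs and 12.9 ± 5.31 in *w1118* SGs, and *Yp1* averaged 1.19 ± 0.81 in *de2f1b* SGs and 2.67 ± 1.41 in *w1118* SGs, at or under the level of a few reads. The summed level of 8 larval fat body markers was 3105295 to 6076937 normalized counts in *de2f1b* SGs and 4488367 to 4888102.5 in *w1118* SGs, with 0 of the 8 at 0 in any library. The genotypes overlapped in that sum, which storage protein genes dominate, but 2 of the 8 markers rose and 0 fell in the test. These were *apolpp*, the lipophorin precursor gene, with 227656 ± 51642 in *de2f1b* SGs and 76709.7 ± 6499 in *w1118* SGs (log2 fold change 1.54, limma adjusted p = 0.043), and *Apoltp*, which encodes a lipid transfer particle protein (1.21, limma adjusted p = 0.047). For both, every mutant library lay above both controls, as for *Yp3*. The remaining fat body markers overlapped between genotypes, with log2 fold changes in both directions. These were 0.56 for *Lsp1alpha*, 0.22 for *Fbp2*, 0.16 for *Fbp1*, -0.01 for *Lsp2*, -0.31 for *Lsp1beta* and -0.65 for *Lsp1gamma*. *apolpp* lies on chromosome 4, where the 157 tested genes had a median log2 fold change of 0.47. The part of fat body RNA in the *Yp3* level was not tested. *tra2*, the partner of Tra in splicing, was the furthest below 0 of the list (-0.24, limma adjusted p = 0.506).

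**Figure D4:**
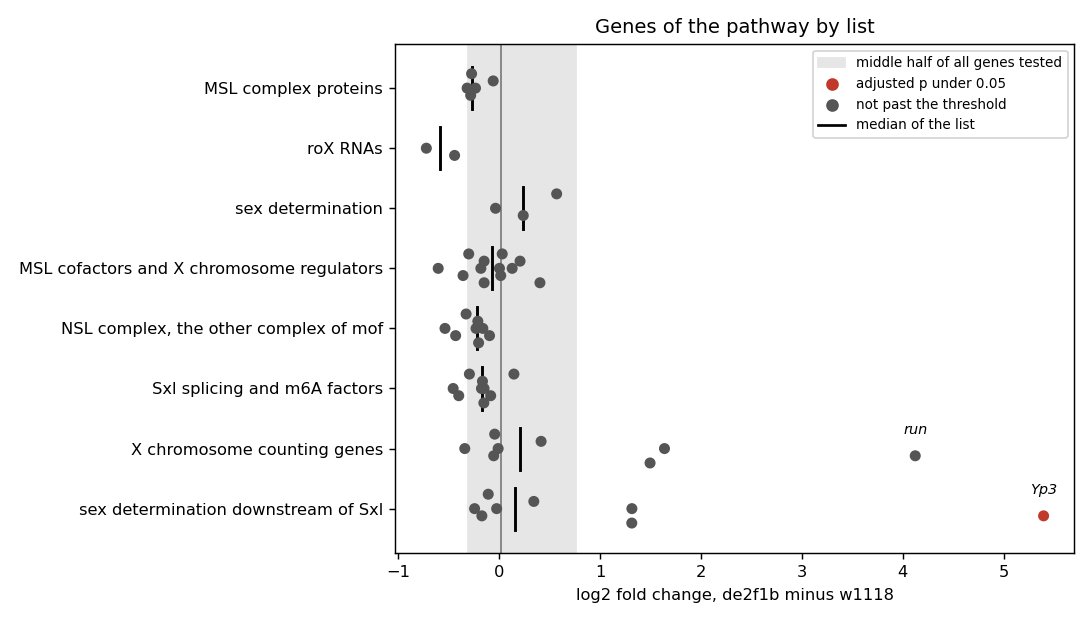
Log2 fold changes, *de2f1b* over *w1118* (x axis), of the genes of each list (rows), with the 10 dosage compensation and sex determination genes split into 3 rows by role. Each point is a gene that was tested and the bar is the median of the list. The grey band holds the middle 50% of all tested genes, and the thin line is their median. *Yp3* at 5.39 is the gene that passed the test, and *run* at 4.12 did not.

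The X chromosome, on which the complex acts in males, had the same median log2 fold change as the autosomes to 2 decimals. Of 1801 tested X-linked genes, 49 (2.72%) rose and 6 (0.333%) fell in *de2f1b* SGs, against 3.17% and 1.07% of all tested genes. That median was 0.02 on the X and 0.02 on chromosomes 2 and 3. In single libraries the median deviation of X genes minus that of autosomal genes was 0.04, 0.03, 0.00 and -0.03 on the log2 scale in *de2f1b* SGs and -0.02 and 0.01 in *w1118* SGs.

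The ratio of summed X to autosomal normalized counts was 0.187, 0.182, 0.196 and 0.178 in *de2f1b* SGs, against 0.159 and 0.166 in *w1118* SGs, with all mutant libraries above both controls. *Sgs4*, *CG14265* and *ng3*, the X genes with the highest counts, held 29.9%, 31.8%, 23.3% and 19.7% of the X counts in *de2f1b* SGs and 15.1% and 24.7% in *w1118* SGs, so their joint share overlapped between genotypes. *ng3* alone did not overlap, with 403983 to 633408 normalized counts in *de2f1b* SGs against 224110 and 145794 in *w1118* SGs (log2 fold change 1.57, limma adjusted p = 0.0779). *Sgs4* overlapped (-0.04, limma adjusted p = 0.958). The part of single genes in the ratio was not tested. Without the 50 genes of highest mean the ratio was 0.203 to 0.209 in *de2f1b* SGs and 0.190 to 0.191 in *w1118* SGs, still without overlap. Without the 500 genes of highest mean it was 0.198 to 0.206 in *de2f1b* SGs and 0.2002 to 0.207 in *w1118* SGs, and the genotypes overlapped.

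**Figure D5:**
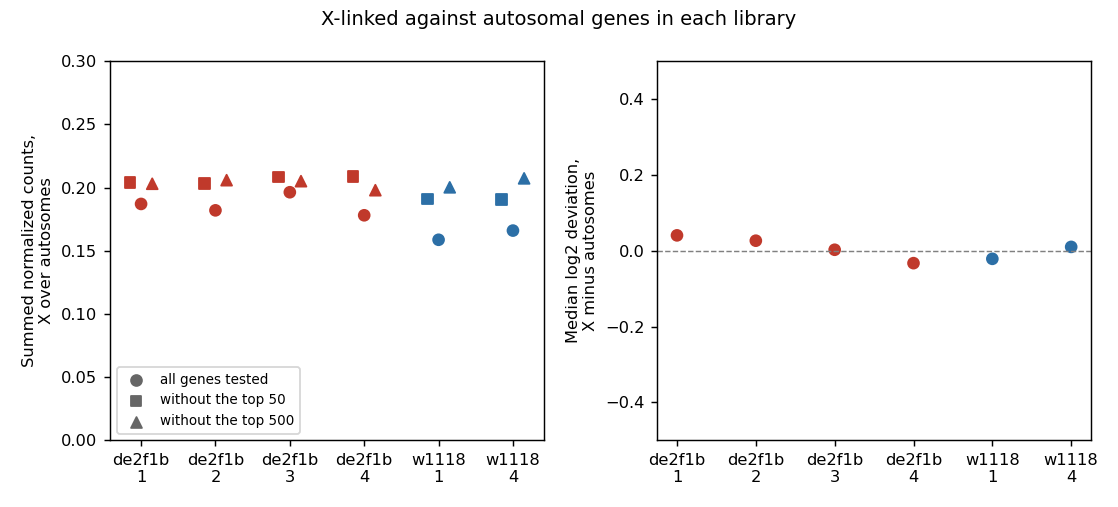
Output of the X chromosome in each library (points, x axis), *de2f1b* left and *w1118* right. In the left panel the ratio of summed X to autosomal normalized counts separates the genotypes with all genes and without the top 50, and overlaps at 0.198 to 0.207 without the top 500. In the right panel the median log2 deviation of X genes minus that of autosomal genes lies between -0.03 and 0.04 in every library.

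Y-linked genes, which only males carry, were close to silent. Of 118 Y genes in the table, 90 had 0 counts in all 6 libraries and 7 reached 10 normalized counts in at least 1. Of the 3 Y genes tested, 0 passed in limma, edgeR or DESeq2, and 1 had an unadjusted p under 0.05 in each. *FDY*, a Y-linked gene, had 1.33, 2.74, 65.1 and 0.782 normalized counts in *de2f1b* SGs, against 29.2 and 8.25 in *w1118* SGs (log2 fold change -1.56, limma adjusted p = 0.593). For *FDY* the value was -0.0065 with edgeR and -0.0927 with DESeq2, -1.01 without *de2f1b* replicate 4 and -2.41 without *w1118* replicate 4. Mutant replicate 3 was the highest, and mutant replicates 1, 2 and 4 were at or under the level of 3 reads, which was 2.35 to 4.11 in the mutant libraries. *ARY* (23.5), *kl-5* (16.3), *Mst77Y-7* (16.3) and *CR45775* (11.8) passed 10 normalized counts only in *de2f1b* replicate 3, the library with the highest sum of testis markers, in which 0 of the 8 testis markers were at 0. The part of testis RNA in these counts was not tested. *CR41507* had 20.01, 16.4, 5.43 and 7.04 in *de2f1b* SGs and 0.834 and 2.75 in *w1118* SGs (2.16, limma adjusted p = 0.223), and *CR40801* had a log2 fold change of -0.74 (limma adjusted p = 0.598), which was -0.37 without *de2f1b* replicate 3. Fold changes at so few reads also depend on the pseudocount.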

How the data were processed

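RNA was extracted from SGs of larvae of the third instar, and paired-end reads were assessed by the authors with FastQC 0.11.8, aligned with STAR 2.7.6a and counted on genes with featureCounts 1.6.0 on BDGP6. The deposited values are a signal: the read count of a gene divided by 1 size factor per library, from DESeq2. Whole reads were recovered by dividing each library by the value of 1 read, and 100% of values came out whole within 0.01. Columns of the authors' own fold changes, standard errors and p-values were not used.

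Genes with at least 10 normalized counts in at least 2 libraries were tested with limma 3.58.1 (R 4.3.3) on log2(normalized count + 1), with a mean trend, over all 6 libraries and no covariates. Fold changes on this scale understate low genes. edgeR 4.0.16 and DESeq2 1.42.0 were run on the recovered reads as alternatives, beside other pseudocounts, filters and scalings and each library left out. The test was checked on simulated data. The 10 genes and the lists were chosen with earlier results of these data known. Besides the 10 genes, those named are list genes past the threshold or with the largest rise or fall, Y genes with at least 10 normalized counts in a library, the 3 genes most like roX1, roX2 and *Sxl*, and *E2f1*; *Yp1*, *Yp2*, single tissue markers and the leading X genes were added after their values were seen. Positions are from the BDGP6.54 annotation, whose release differs from that used for counting. The alternatives chosen after seeing the data left out *de2f1b* replicates 3 and 4, or the 50 or 500 genes of highest mean. At 0 counts, a value of up to 3 reads is allowed, for counting error only. Python 3.11.15, pandas 2.3.3, NumPy 2.4.6 and Matplotlib 3.10.9 were used.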

Additional observations from a re-analysis of the deposited data

Results flagged for a closer look

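In 2 of the 10 genes, 1 mutant library stood apart from the other 3. *msl-1* had 1248 normalized counts in *de2f1b* replicate 4, against 1533 to 1579.95 in the other *de2f1b* libraries, and the gap was 0.872 of the range. *msl-3* had 709.9 in *de2f1b* replicate 3, against 511 to 537 in the other *de2f1b* libraries, and the gap was 0.851 of the range. Both gaps exceeded Dixon's critical value for 4 samples. Over the 24 genes examined chance alone would give about 1.2 such libraries, and 2 were found.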

How the results depend on the processing

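Under all 17 alternatives 0 of the 10 genes rose and 0 fell at the threshold. *msl-1*, *msl-2*, *msl-3*, *mof* and both roX RNAs stayed below 0, and *tra* and *dsx* above. Signs turned for *mle* (0.0943 with the same total), *Sxl* (0.12 with the same total, 0.00296 with edgeR, 0.20 without *de2f1b* replicates 3 and 4) and *Rcd5* (0.0581 with the same total). With each library left out in turn, log2 fold changes ran from -0.16 to 0.0431 for *mle*, -0.18 to 0.11 for *Sxl*, -0.28 to 0.0934 for *Rcd5* and -0.028 to 0.32 for *Ythdc1*. The cause was not tested. All genes passing the threshold numbered 352 higher and 119 lower, 208 and 71 with no filter, 1105 and 621 with DESeq2, and 198 higher with edgeR. They ran from 72 to 242 higher and from 5 to 68 lower with each library left out, the lowest without *w1118* replicate 4. The median of all tested genes was 0.18 with the same total, 0.24 with no filter, -0.08 with a mean of at least 100, 0.08 with edgeR and 0.48 with DESeq2. The X median was 0.18 with the same total, 0.23 with no filter, -0.083 with a mean of at least 100, 0.0777 with edgeR, 0.35 with DESeq2, 0.053 with TMM, -0.0239 without *de2f1b* replicates 3 and 4, and -0.0348 to 0.0374 with each library left out. Only numbers 1 and 4 occur in both genotypes, and the same-numbered libraries deviated in opposite directions (correlation -0.32 and -0.36). With 2 controls, the deviations of one from their mean mirror those of the other. These values therefore cannot decide whether the numbers pair the libraries. With the replicate number as a block, 5 genes were called higher and 2 lower, and *Yp3* had an adjusted p of 0.0558.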

Other observations

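Ordered by level over the 6 libraries, *tra* ran almost exactly opposite to roX1. roX1 fell in the order *w1118* replicate 1, *de2f1b* replicate 3, *de2f1b* replicate 1, *w1118* replicate 4, *de2f1b* replicate 4 and *de2f1b* replicate 2, and *tra* rose in that order apart from 1 exchange of neighbours (Spearman's rho -0.94 as a description). Of the 11099 tested genes, 40 (0.36%) were as opposite in order to roX1. The pair was chosen after its values were seen, and the points share the libraries of both genotypes. *FDY*, the Y-linked gene, was highest in *de2f1b* replicate 3 and *w1118* replicate 1, which were also the libraries with the most roX1. The match stopped there: *de2f1b* replicate 1, next in roX1, had 1.33 normalized counts of *FDY*, against 8.25 in *w1118* replicate 4. *de2f1b* replicate 3 also had the highest sum of testis markers. The cause of these orders was not tested.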
